A study of Homo sapiens with 9 samples.

Results

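HT1080 cells, an established human fibrosarcoma line, were grown on top of a thick collagen gel and exposed to a mix of protease inhibitors for 4 h, and their transcripts were set against those of untreated HT1080 cells on the same kind of gel. The comparison used 6 of the 9 arrays of the series, 3 titled as 4 h inhibitor treatment and 3 titled as vehicle. Its genes were the 8838 of 19775 measured genes (44.7%) whose brightest probe set had a mean intensity of at least 50 over all 9 arrays, called expressed genes here. The other 3 arrays, from cells kept in the mix for 24 h, helped to estimate the spread and appear only beside the 4 h values.

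All groups came from 1 cell line and shared the same substrate: fibrillar bovine dermal collagen at 1.7 mg/ml, polymerised for 4 h, with cells seeded in medium with 10% serum and given 24 h to adhere. The mix held GM6001 at 100 µM, which blocks matrix metalloproteinases, pepstatin A at 50 µM, which blocks aspartic proteases, E64 at 250 µM, which blocks cysteine proteases, and aprotinin and leupeptin at 2 µM each, which act on serine proteases and, for leupeptin, also on cysteine proteases. The agents were always given together, so no effect can be assigned to a single compound. The untreated arrays carry the word vehicle in their titles, but the sources do not state what it was or when those cells were harvested, so inhibitor and time on the gel cannot be told apart. Values are deposited linear intensities, each array scaled to a trimmed mean of 100, so a change in total messenger RNA is not visible. Means are given ± SD over 3 arrays, and changes are differences of log2(intensity + 16) ± SE, which understate the change of dim genes. Fold values of genes are these differences put back on a linear scale, so they are not ratios of the mean intensities. A gene was called higher or lower at an adjusted p under 0.05 (limma, Benjamini-Hochberg over the 8838 expressed genes).

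Fibrosarcoma cells dissolve collagen with membrane-bound and secreted metalloproteinases and digest the pieces in lysosomes with cathepsins. Cells answer many sudden changes with immediate early genes, which are transcribed without new protein synthesis and soon switched off again. NF-kB is a family of transcription factors held in the cytoplasm by IkB proteins, and its first target genes include those same inhibitors and chemokines. YAP, a coactivator that works with TEAD factors and responds to cell spreading and tension, drives CCN2 and CCN1.

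The arrays carried the markers of the labelled cells. Of 15 mesenchymal markers, 12 had a mean intensity of at least 50, and the intermediate filament gene VIM measured 9681 ± 1023 untreated and 10439 ± 1039 at 4 h. Of 14 measured epithelial markers, 11 lay below 16, EPCAM and CDH1 among them, while KRT8 and KRT18 were expressed. Endothelial and leukocyte markers were near 0 (7 of 10 and 9 of 11 below 16), with CDH5 and PTPRC below 16 in the mean, and TIE1, CSF1R and CD3D were at 50 or more. Summed epithelial levels ran from 4192 to 4711 untreated and 4475 to 5298 at 4 h, endothelial ones from 167 to 176 and from 191 to 203, and leukocyte ones from 152 to 188 and from 112 to 206. The poly-A spike transcripts, added to the RNA during preparation, were 1.85-fold brighter at 4 h (exact permutation p = 0.1, two-sided, the smallest that 3 against 3 arrays allow). Hybridisation controls were 1.09-fold brighter (exact permutation p = 0.3). The ratio of the 5′ to the 3′ probe set of ACTB, a sign of RNA integrity, was 0.855, 0.922 and 0.902 untreated and 0.682, 0.871 and 0.615 at 4 h (exact permutation p = 0.2). The same ratio of GAPDH was not lower at 4 h, with means of 1.05 untreated and 1.07 at 4 h (exact permutation p = 0.3). On the first principal component of the expressed genes (37.2% of the variance) the untreated arrays lay between -17.5 and -12.3 and the 4 h arrays at 6.42, -8.35 and 12.2. Replicate 2 of the 4 h group thus stood nearest the untreated arrays on the ACTB ratio and on this component. The part of these differences in the results was not tested.

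After 4 h of the mix, 268 expressed genes were higher than in untreated cells and 130 were lower, which is 4.50% of those tested (3.03% higher and 1.47% lower). The changes were mostly modest: 32 genes (0.362%) changed at least 2-fold on the log2 scale used here, 31 of them upward. The median size of a called change was 0.68 for rises and 0.54 for falls on the log2 scale, while the median change of all expressed genes was -0.01. The 3 treated arrays lay wholly above the 3 untreated ones for 1136 genes (12.9%) and wholly below them for 1128 (12.8%), 25.6% in all, so non-overlap was about as common in both directions. Without replicate 2 of the 4 h group the counts were 484 higher and 516 lower. Leaving out untreated replicate 3 instead left 100 higher and 12 lower, untreated replicate 2 left 112 and 15, replicate 1 at 4 h left 162 and 33, and replicate 3 at 4 h left 151 and 51. Without untreated replicate 1 there were 215 higher and 58 lower.

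The filter used the mean of all 9 arrays, so 26 of the rises had an untreated mean under 50 and 8 of the falls a 4 h mean under 50. Relative to the untreated mean, the median rise was 0.69, 0.62 and 0.77 on replicates 1, 2 and 3 at 4 h. The median fall was -0.61, -0.42 and -0.59 on the same arrays. Replicate 2 was the treated array nearest the untreated mean for 141 of the 268 rises (52.6%) and 79 of the 130 falls (60.8%), against 3195 of all 8838 genes (36.2%). In all, 83 rises and 9 falls were called whichever single array was left out. In RNA from a whole culture, fewer cells carrying a transcript and less of it per cell cannot be told apart.

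**Figure D1:**
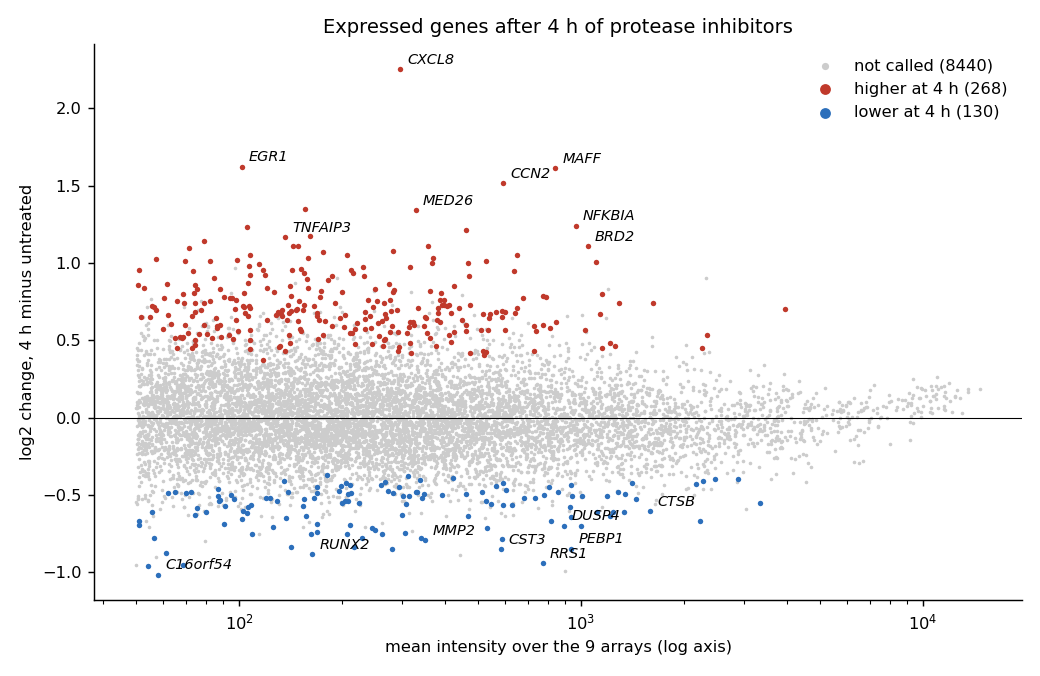
Log2 change from untreated to 4 h (vertical axis) against mean intensity over the 9 arrays (horizontal log axis) for the 8838 expressed genes, 1 point per gene, with the 268 genes called higher and the 130 called lower in colour. Most called changes lie within 2-fold, and the genes furthest up are CXCL8, EGR1, MAFF and CCN2.

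The 4 largest rises, and NFKBIA with them, were the genes that marked the early response, and they had been chosen as markers with results of these arrays known, so their values are given as a description. Their promoter windows are shown because several carry letters that match well-known early-response elements. Each window runs from 250 bases before to 50 after the annotated start, 5′ to 3′ on the gene's strand (RefSeq, GRCh38.p14). Capitals mark matches on either strand to AP-1 (TGANTCA), CRE (TGACGTCA), the CArG box, the NF-kB site, the related palindrome GGAANTTCC, and, for CCN2, the TEAD element GGAATG.
CXCL8 (chr4:73740319-73740618, plus strand): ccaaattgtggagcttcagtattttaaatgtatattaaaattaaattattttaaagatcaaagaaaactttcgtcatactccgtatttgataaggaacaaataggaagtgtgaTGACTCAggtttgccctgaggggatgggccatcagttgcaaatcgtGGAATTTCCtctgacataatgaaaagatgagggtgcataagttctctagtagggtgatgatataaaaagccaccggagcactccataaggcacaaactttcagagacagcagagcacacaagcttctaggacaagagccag
EGR1 (chr5:138465229-138465528, plus strand): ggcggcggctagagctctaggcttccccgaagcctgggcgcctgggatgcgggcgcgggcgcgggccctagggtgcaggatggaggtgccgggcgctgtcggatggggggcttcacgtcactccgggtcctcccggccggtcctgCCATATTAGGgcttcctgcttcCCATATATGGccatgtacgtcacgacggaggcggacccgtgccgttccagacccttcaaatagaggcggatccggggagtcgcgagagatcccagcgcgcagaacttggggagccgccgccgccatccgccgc
MAFF, first start (chr22:38201744-38202043, plus strand): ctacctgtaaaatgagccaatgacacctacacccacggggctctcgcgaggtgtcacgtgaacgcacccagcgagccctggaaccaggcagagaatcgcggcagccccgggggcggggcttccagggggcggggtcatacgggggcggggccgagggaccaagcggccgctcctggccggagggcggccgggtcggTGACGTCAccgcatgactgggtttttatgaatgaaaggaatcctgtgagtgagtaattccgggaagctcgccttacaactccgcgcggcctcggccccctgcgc
MAFF, second start (chr22:38202770-38203069, plus strand): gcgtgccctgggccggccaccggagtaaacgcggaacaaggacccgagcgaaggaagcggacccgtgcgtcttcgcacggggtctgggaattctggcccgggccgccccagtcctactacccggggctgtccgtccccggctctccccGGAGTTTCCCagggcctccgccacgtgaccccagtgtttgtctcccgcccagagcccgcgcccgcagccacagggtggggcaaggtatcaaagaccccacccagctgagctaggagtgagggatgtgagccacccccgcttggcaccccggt
NFKBIA (chr14:35404700-35404999, minus strand): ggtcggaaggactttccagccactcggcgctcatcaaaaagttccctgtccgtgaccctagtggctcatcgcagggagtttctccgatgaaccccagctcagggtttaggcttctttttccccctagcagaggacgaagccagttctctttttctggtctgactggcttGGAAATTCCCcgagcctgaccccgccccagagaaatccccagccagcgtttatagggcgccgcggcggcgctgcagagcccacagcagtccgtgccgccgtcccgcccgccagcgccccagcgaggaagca
CCN2 (chr6:131951323-131951622, minus strand): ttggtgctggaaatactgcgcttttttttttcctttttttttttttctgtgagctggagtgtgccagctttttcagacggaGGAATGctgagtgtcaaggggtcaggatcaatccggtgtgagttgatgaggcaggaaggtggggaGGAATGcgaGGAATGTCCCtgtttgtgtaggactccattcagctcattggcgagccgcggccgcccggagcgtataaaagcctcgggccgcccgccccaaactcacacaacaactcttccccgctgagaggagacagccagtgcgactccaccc

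The CXCL8 window held TGACTCA 137 bases and GGAATTTCC 91 bases before the start. The EGR1 window held 2 CArG boxes, CCATATTAGG and CCATATATGG, 105 and 83 bases before it. MAFF had a CRE 54 bases before its first start and an NF-kB match, GGAGTTTCCC, 102 bases before its second. In NFKBIA the NF-kB match GGAAATTCCC lay 81 bases before the start and overlapped the palindrome. CCN2 held GGAATG 169, 104 and 95 bases before the start, the last of them within an NF-kB match, GGAATGTCCC. Among all 35093 windows in the RefSeq table, AP-1 matched in 7.71%, CRE in 1.85%, the CArG box in 1.29%, the NF-kB site in 11.3%, the palindrome in 0.966% and GGAATG in 14.0%. A match describes the letters in the window and says nothing about binding in these cells.

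CXCL8, which encodes the chemokine interleukin-8 that attracts neutrophils, rose more than any other gene. It measured 149, 104 and 126 on the untreated arrays and 695, 612 and 665 at 4 h. The lowest treated array stood far above the highest untreated one, and the rise was 4.77-fold on the log2 scale used here (log2 2.25 ± 0.13, adjusted p = 9.59e-06). EGR1, an immediate early zinc finger transcription factor, measured 55.5, 38.8 and 46.8 untreated and 189, 166 and 176 at 4 h. Its rise of 3.08-fold on that scale (log2 1.62 ± 0.12, adjusted p = 6.42e-05) started from a level close to the filter. MAFF, a small MAF protein that pairs with other leucine zipper factors, measured 405, 408 and 428 untreated and 1579, 1076 and 1292 at 4 h, or 3.06-fold (log2 1.61 ± 0.13, adjusted p = 0.000106). Untreated MAFF values were tightly grouped, whereas the treated ones spread widely without touching them. The second, dimmer expressed probe set of MAFF rose less (log2 0.86, adjusted p = 0.014) and was also called.

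CCN2, a secreted matricellular protein also called connective tissue growth factor, measured 339, 388 and 423 untreated and 1208, 1352 and 861 at 4 h (2.86-fold, log2 1.51 ± 0.16, adjusted p = 0.000705). Here replicate 3 was the lowest treated array, still above every untreated one. NFKBIA encodes IkB-alpha, the inhibitor that NF-kB itself induces. Its values were 594, 519 and 601 untreated and 1351, 1517 and 1257 at 4 h, with no overlap (2.37-fold, log2 1.24 ± 0.11, adjusted p = 0.000186). All 5 genes kept their call whichever array was left out. At 24 h the same genes measured 106 ± 14.1 (CXCL8), 81.3 ± 8.0 (EGR1), 793 ± 36.2 (MAFF), 256 ± 32.3 (CCN2) and 954 ± 21.7 (NFKBIA), each lower than at 4 h, a difference that 3.46% of expressed genes showed in either direction (adjusted p = 3.28e-06, 0.00171, 0.015, 0.000114 and 0.0266). CCN2 at 24 h was also below its untreated level (log2 -0.56, adjusted p = 0.0436; 12.9% of expressed genes differed between 24 h and untreated). The 24 h and 4 h comparisons share the untreated arrays. The difference between 24 h and 4 h also uses the 4 h arrays, whose results were known when these genes were chosen. That choice favours a lower level at 24 h.

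The remaining 5 of the 10 largest rises were RBBP6, MED26, NLRP3, ZNF451 and TUFT1. RBBP6, a ubiquitin ligase that binds the retinoblastoma protein, measured 116, 97.6 and 49.2 untreated and 188, 197 and 356 at 4 h (log2 1.35 ± 0.26, adjusted p = 0.0148). Its range was wide in both groups, and without untreated replicate 3 the adjusted p was 0.0508. NLRP3, the sensor protein of an inflammasome, measured 69.9, 52.8 and 56.5 untreated and 212, 142 and 139 at 4 h (log2 1.23 ± 0.15, adjusted p = 0.00176). TUFT1, first known as an enamel matrix protein, measured 95.0, 94.6 and 114 untreated and 289.7, 207 and 254 at 4 h (log2 1.18 ± 0.13, adjusted p = 0.00084). For both genes every treated array lay above every untreated one. ZNF451, a zinc finger protein with SUMO ligase activity, measured 345, 308 and 220.2 untreated and 634, 572 and 890.5 at 4 h (log2 1.22 ± 0.20, adjusted p = 0.00653), but its second, dimmer expressed probe set gave 0.11 and the average of both 0.66.

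**Figure D2:**
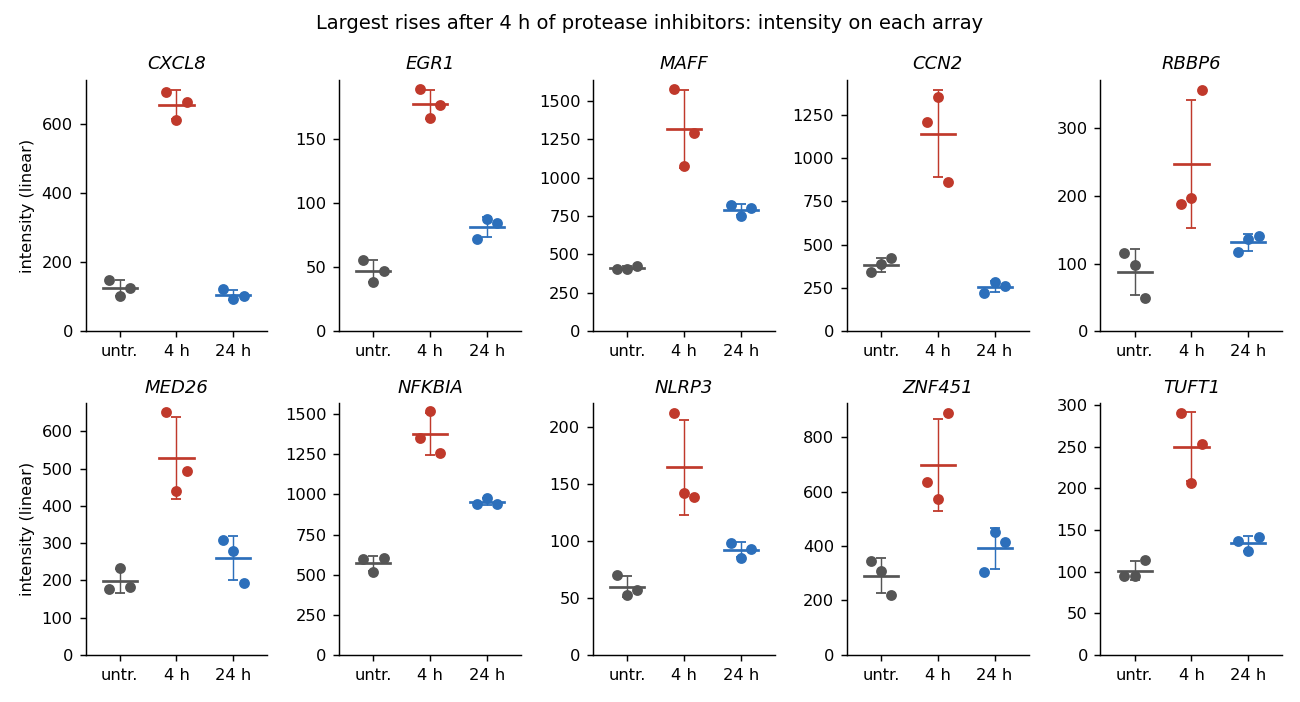
Linear intensity on each array for the 10 largest rises, with 1 point per array, a bar for the mean and an error bar for the SD (n = 3) in untreated cells and after 4 h and 24 h of inhibitors. In all 10 genes the 4 h points lie above the untreated points, and CXCL8 and CCN2 are back at or below the untreated level at 24 h.

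Each list count stands beside the share over all expressed genes, of which 3.03% were higher and 1.47% lower (4.50% called, median change -0.01). Among immediate early transcription factors, 6 of 25 expressed members rose and none fell (median change 0.34). Besides EGR1 and MAFF these were SERTAD1, SRF and, named only to complete the count, BTG1 and CSRNP1. SERTAD1, a cyclin-dependent kinase 4 binding protein, measured 228, 211 and 242 untreated and 451, 446 and 353 at 4 h (log2 0.83 ± 0.12, adjusted p = 0.00311). SRF, the serum response factor that binds CArG boxes, measured 99.5, 78.2 and 102 untreated and 185, 164 and 176 at 4 h (log2 0.81 ± 0.12, adjusted p = 0.00407). Both were separated from the untreated arrays by a clear gap and were called without any single array. BTG1, an antiproliferative gene, changed by 0.48 ± 0.11 (adjusted p = 0.0323) and CSRNP1 by 0.60 ± 0.15 (adjusted p = 0.0467). BTG1 lost its call without any of untreated replicates 1, 2 and 3 or replicates 1 and 3 at 4 h (adjusted p up to 0.141). CSRNP1 lost it without any array but untreated replicate 2 and replicate 1 at 24 h (up to 0.178).

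MAP kinase feedback genes moved both ways, with 3 of 21 expressed members higher and 2 lower (median 0.03). RASA2, a GTPase-activating protein that turns RAS off, measured 234, 213 and 185 untreated and 334, 394 and 592 at 4 h (log2 0.97 ± 0.19, adjusted p = 0.0156), and without untreated replicate 2 or 3 its adjusted p was 0.0539 or 0.0716. HBEGF, an EGF receptor ligand, changed by 0.42 ± 0.11 (adjusted p = 0.0443), and SPRY4, a Sprouty inhibitor of RAS signalling, by 0.66 ± 0.17 (adjusted p = 0.0457). The phosphatase gene DUSP4, which dephosphorylates ERK, went down on its brightest probe set, from 870.3, 1079 and 1064 to 648, 626 and 559 (log2 -0.70 ± 0.12, adjusted p = 0.0064), with no overlap. At 24 h that probe set was again at 1069.6 ± 46.1. The second brightest gave -0.25, with overlapping arrays and no call (adjusted p = 0.281), and the third gave -0.79. The average of the 3 was called (adjusted p = 0.014). DUSP10, a phosphatase of JNK and p38, changed by -0.76 ± 0.18 (adjusted p = 0.0376), its replicate 2 at 4 h (214) standing closest to the untreated values of 229, 281 and 264. HBEGF lost its call without any array but replicate 3 at 4 h (adjusted p up to 0.146), but its dimmer probe set gave 0.78 and the average of both was called (log2 0.60, adjusted p = 0.00719). SPRY4 lost its call without any but replicate 1 at 24 h (up to 0.165) and DUSP10 without any but replicate 2 at 4 h (up to 0.136).

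The genes that form and restrain NF-kB gave 7 rises and no falls among 19 expressed members (median 0.25), where 3.03% of all expressed genes were higher. NFKBIA, 1 of the 7, had been chosen as a marker, and the list drawn up, with earlier results of these data known. TNFAIP3, which encodes the ubiquitin-editing inhibitor A20, measured 85.8, 104 and 89.6 untreated and 224, 236 and 225 at 4 h (log2 1.17 ± 0.11, adjusted p = 0.000268). Its second expressed probe set rose too (1.06). MAP3K14, the NF-kB-inducing kinase of the noncanonical pathway, measured 85.2, 85.8 and 86.2 untreated and 201, 225 and 186 at 4 h (log2 1.11 ± 0.10, adjusted p = 0.000268). In both genes every treated array was far above every untreated one.

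The other rises of that list are named to complete the count. NFKBIE, a further IkB inhibitor, measured 109 ± 4.9 untreated and 208 ± 24.4 at 4 h (log2 0.84 ± 0.11, adjusted p = 0.00207), and the precursor subunit gene NFKB1 292 ± 6.9 untreated and 462 ± 28.1 at 4 h (log2 0.63 ± 0.10, adjusted p = 0.00484); neither lost its call without any array. RELB, the noncanonical subunit, measured 47.8 ± 14.4 untreated and 125 ± 32.4 at 4 h (log2 1.14 ± 0.21, adjusted p = 0.0122), and its adjusted p reached 0.0554 among the fits without untreated replicate 3 or replicate 1 at 4 h, both of which ended the call. With an untreated mean under 50, RELB passed the filter through the treated arrays. BIRC2, a ubiquitin ligase that degrades MAP3K14 protein, measured 910.4 ± 104 untreated and 1466 ± 258 at 4 h (log2 0.67 ± 0.13, adjusted p = 0.0177), and was not called without untreated replicate 2 or 3 (up to 0.0838). The other 12 expressed members did not pass the test.

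Of 29 measured chemokines and cytokines 22 were below the filter, and the 7 expressed ones held 2 rises and 1 fall (median 0.11). IL1A, the interleukin-1-alpha gene, measured 47.1, 32.3 and 42.2 untreated and 86.6, 65.0 and 79.5 at 4 h (log2 0.72 ± 0.16, adjusted p = 0.0296), a rise among very dim values, and with an untreated mean of 40.5 the gene passed the filter through the 4 h arrays. CSF1, the macrophage growth factor, measured 327, 343 and 344 untreated and 154, 270.2 and 192 at 4 h (log2 -0.71 ± 0.16, adjusted p = 0.0294), so a cytokine gene fell while CXCL8 rose. IL1A lost its call without untreated replicate 2 or 3 or replicate 1 or 3 at 4 h (adjusted p up to 0.128), and CSF1 without those or untreated replicate 1 (up to 0.104). In the wider list of NF-kB targets, 2 of 18 rose and none fell (median 0.27): NLRP3 and BCL2A1. BCL2A1, an antiapoptotic BCL2 relative, measured 72.3, 69.7 and 88.4 untreated and 142, 148 and 136 at 4 h (log2 0.77 ± 0.11, adjusted p = 0.00311), called without any single array, and was at 66.9 ± 4.7 at 24 h.

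YAP/TEAD targets gave 6 rises and no falls among 21 expressed members (median 0.22). Beside CCN2, DLC1, a tumour suppressor, measured 373, 327 and 315 untreated and 676, 637 and 763 at 4 h (log2 1.00 ± 0.13, adjusted p = 0.0027). CCN1, a matricellular relative of CCN2, measured 956, 971 and 1157 untreated and 1679, 1859.8 and 1636 at 4 h (log2 0.74 ± 0.12, adjusted p = 0.00542). Both were already bright in untreated cells, kept their call without any array, and were lower again at 24 h (374 ± 60.1 and 1134 ± 103). LATS2, AMOTL2 and ASAP1 complete the count. LATS2, a kinase that inhibits YAP, measured 237 ± 26.3 untreated and 506 ± 106 at 4 h (log2 1.03 ± 0.16, adjusted p = 0.00542). AMOTL2, which tethers YAP outside the nucleus, measured 659 ± 50.0 untreated and 1010.0 ± 124 at 4 h (log2 0.60 ± 0.12, adjusted p = 0.0177), and was not called without untreated replicate 1 or 3 or replicate 1 at 4 h (adjusted p up to 0.0684). ASAP1, an ARF GTPase-activating protein, measured 494 ± 43.1 untreated and 862 ± 144 at 4 h (log2 0.78 ± 0.14, adjusted p = 0.00916). Without untreated replicate 3 its adjusted p was 0.056, and averaging its 4 expressed probe sets gave 0.0871.

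Among cytoskeletal targets of SRF and its cofactor MRTF, 1 of 19 rose (SRF itself), 1 fell, and the median was -0.09. The fall was MYL9, a myosin light chain of contractile cells, at 434, 471 and 471 untreated and 287, 399 and 272 at 4 h (log2 -0.52 ± 0.13, adjusted p = 0.0496), a call lost without any array but replicate 2 at 4 h (up to 0.157). Of 21 TGF-beta and BMP targets 1 rose and 2 fell (median 0.11). INHBA, the activin subunit gene, measured 80.1, 75.1 and 78.9 untreated and 141, 138 and 167 at 4 h (log2 0.80 ± 0.11, adjusted p = 0.00245), and both its expressed probe sets moved alike. ID3, an inhibitor of DNA binding induced by BMP, measured 1497, 1629 and 1751 untreated and 1093, 1098 and 980.3 at 4 h (log2 -0.61 ± 0.10, adjusted p = 0.00722), and was lower still at 24 h (657 ± 15.0). Without untreated replicate 3 its adjusted p was 0.0508. TGFBR2, the type II TGF-beta receptor, changed by -0.50 ± 0.11 (adjusted p = 0.0278, or 0.0525 for the average of its 2 probe sets), and lost its call without untreated replicate 2 or 3 or replicate 1 or 3 at 4 h (up to 0.117).

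The transcription elongation list had 5 rises and no falls among 17 expressed members, though its median was 0.06. BRD2, a BET protein that binds acetylated histones, measured 728, 678 and 565 untreated and 1322, 1469.9 and 1503 at 4 h (log2 1.11 ± 0.12, adjusted p = 0.000639), and a second of its 3 expressed probe sets rose by 1.12. The third and dimmest gave 0.295, with overlapping arrays and no call (adjusted p = 0.364). The average of the 3 was called (adjusted p = 0.00224). MED26, the Mediator subunit that recruits elongation factors, measured 176, 234 and 183 untreated and 650.3, 441 and 494 at 4 h (log2 1.34 ± 0.18, adjusted p = 0.00294). CCNT1, the cyclin of the elongation kinase P-TEFb, measured 380.5, 354 and 400.2 untreated and 649, 585 and 676 at 4 h (log2 0.73 ± 0.10, adjusted p = 0.00303). On the brightest probe set of each, the treated and untreated arrays of all 3 genes were separate, and the calls held without any single array. SERTAD1 is also in that list, and MED13, a Mediator kinase-module subunit named to complete the count, changed by 0.67 ± 0.16 (adjusted p = 0.0323). MED13 was not called without untreated replicate 2 or 3 or replicate 3 at 4 h (up to 0.138).

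Genes that destabilise messenger RNA gave 4 rises and 1 fall among 13 expressed members (median 0.24), BTG1 among the rises. ZFP36L2, which binds AU-rich elements, measured 128, 130.3 and 128 untreated and 222, 216 and 242 at 4 h (log2 0.74 ± 0.12, adjusted p = 0.00548), and stayed at 218 ± 34.1 at 24 h. ZC3H12C, a relative of the ribonuclease regnase-1, measured 81.2, 41.9 and 58.6 untreated and 126, 133 and 148 at 4 h (log2 1.02 ± 0.17, adjusted p = 0.00595). Both were called without any single array. RC3H1, the roquin gene, measured 129, 72.1 and 78.1 untreated and 192, 164 and 201 at 4 h (log2 0.92 ± 0.17, adjusted p = 0.0106), and lost its call without untreated replicate 2 or 3 (0.0536 and 0.0592). AUH, an AU-binding mitochondrial enzyme, went from 94.5, 93.2 and 104 to 59.0, 63.5 and 64.3 (log2 -0.53 ± 0.12, adjusted p = 0.0329). That call was lost without any untreated array or replicate 1 or 3 at 4 h (up to 0.138).

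The 17 genes with numbered ZNF symbols that rose, of 155 expressed with none lower (median 0.15), were a group chosen after the data had been seen. The rises included ZNF275 (90.9 ± 13.1 untreated and 214 ± 12.7 at 4 h, log2 1.11 ± 0.12, adjusted p = 0.000639) and ZNF281 (log2 1.00 ± 0.14, adjusted p = 0.00332). The count was 10 without replicate 3 at 4 h and 8 without untreated replicate 2 or untreated replicate 3. Of the 17, 8 had a mean intensity under 100, and 6 had an untreated mean under 50 and passed the filter through brighter treated arrays.

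**Figure D3:**
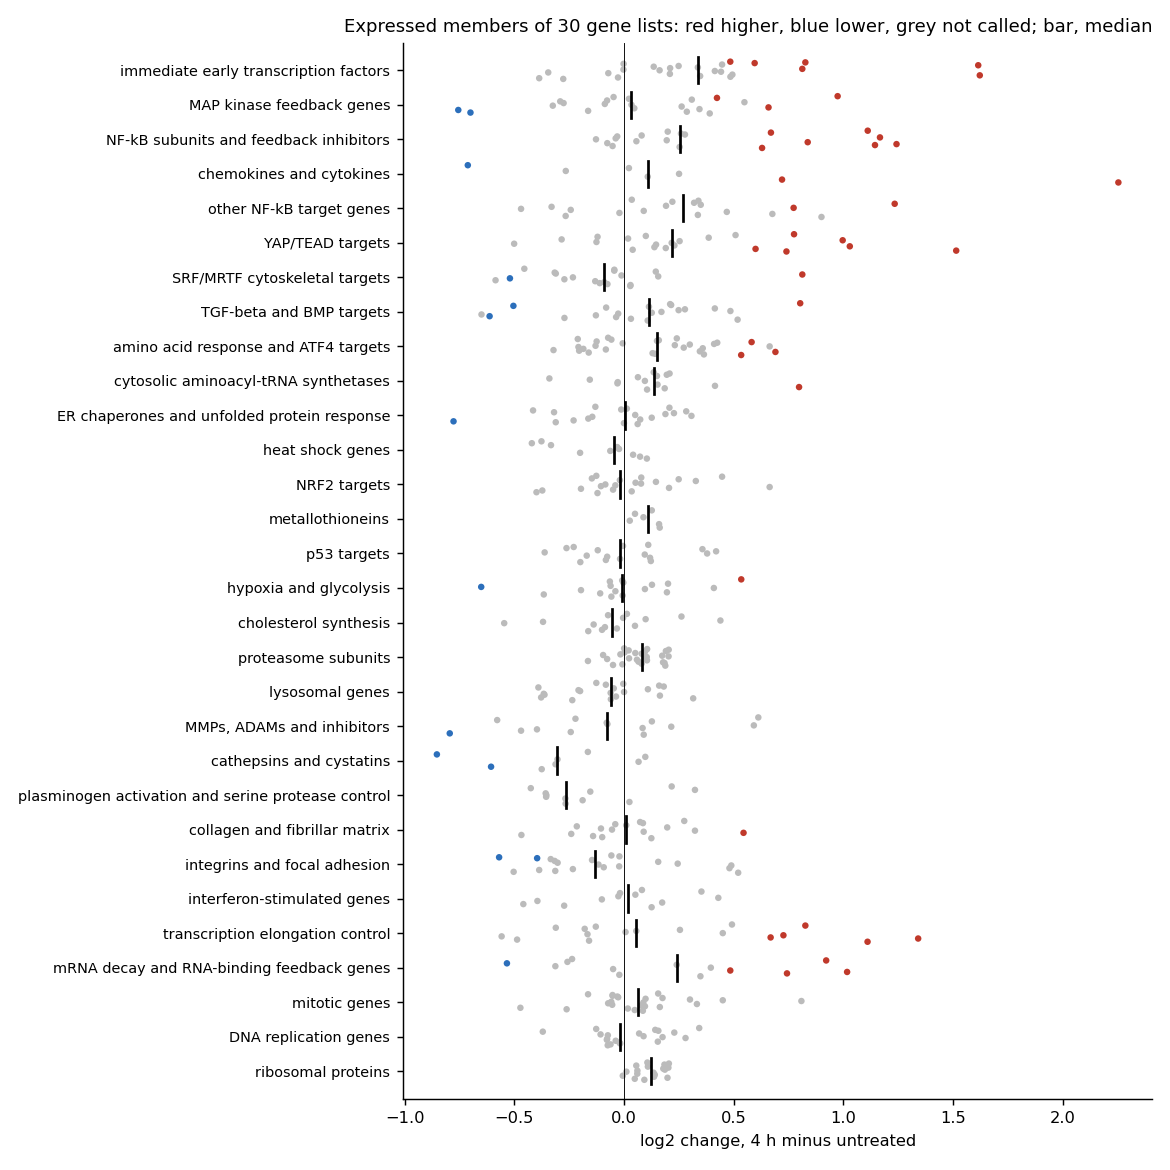
Log2 change from untreated to 4 h (horizontal axis) of every expressed member of the response gene lists, 1 row per list and 1 point per gene, with called genes in colour and the list median as a tick. The NF-kB list holds 7 rises and no fall, and the cathepsin and plasminogen lists lie mostly left of 0. So do others, among them the SRF/MRTF, integrin, lysosomal and heat shock lists.

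Of the 7 protease genes followed as inhibitor targets, MMP2 and CTSB fell and the others did not pass the test. MMP2, the gelatinase A gene, was the only call among 14 expressed metalloproteinases, ADAMs and their inhibitors (median -0.08), at 541, 488 and 520.0 untreated and 215, 399 and 284 at 4 h (log2 -0.79 ± 0.19, adjusted p = 0.0364). Replicate 2 at 4 h was the highest treated array, below all untreated ones. At 24 h MMP2 measured 234 ± 44.4, which was not called against 4 h (adjusted p = 0.408). The MMP2 call was lost without any of untreated replicates 1, 2 and 3, replicates 1 and 3 at 4 h, or replicate 3 at 24 h (adjusted p up to 0.117). The collagenase MMP1 measured 308 ± 15.6 untreated and 329 ± 28.8 at 4 h (log2 0.09 ± 0.10, adjusted p = 0.651). MMP14, the membrane-type collagenase, measured 404 ± 25.9 untreated and 309.9 ± 80.9 at 4 h (log2 -0.40 ± 0.16, adjusted p = 0.171). For MMP1 the treated and untreated values overlapped, and for MMP14 all treated arrays lay below the untreated ones.

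Cathepsins and cystatins gave 2 falls and no rise among 8 expressed members (median -0.31). CST3, cystatin C, a secreted inhibitor of cysteine cathepsins, measured 820.3, 853 and 918 untreated and 412, 646 and 391 at 4 h (log2 -0.85 ± 0.16, adjusted p = 0.0148). CTSB, the lysosomal cysteine protease cathepsin B, measured 2077, 2121 and 2068 untreated and 1097, 1553 and 1499 at 4 h (log2 -0.61 ± 0.13, adjusted p = 0.0261). CST3 lost its call without untreated replicate 2 or 3 or replicate 1 or 3 at 4 h (adjusted p up to 0.0684), and CTSB without any untreated array or replicate 1 at 4 h (up to 0.097). The 5 expressed probe sets of CTSB gave changes of -0.61, -0.79, -0.09, 0.01 and -0.33, and their average did not pass the test (adjusted p = 0.106). CTSL differed by -0.30 ± 0.12 (adjusted p = 0.147) and the aspartic protease CTSD by -0.31 ± 0.19 (adjusted p = 0.37), neither called.

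No plasminogen activation or serine protease gene was called among 11 expressed (median -0.27). PLAU, the urokinase gene, measured 2009 ± 63.9 untreated and 1691 ± 333 at 4 h (log2 -0.27 ± 0.16, adjusted p = 0.344), with replicate 1 at 4 h (1329) well under the rest. PRSS23, the member with the smallest p, measured 1557 ± 60.1 untreated and 1212 ± 21.1 at 4 h (log2 -0.36 ± 0.10, adjusted p = 0.0622). Collagen and fibrillar matrix genes gave 1 rise among 17 (5.9%, near the 4.50% of all expressed genes called, list median 0.01). COL12A1, a fibril-associated collagen, changed by 0.55 ± 0.14 (adjusted p = 0.0478), a call lost without any array but replicate 2 at 4 h (up to 0.179). FN1, the fibronectin gene, measured 1399 ± 132 untreated and 1772 ± 361 at 4 h (log2 0.32 ± 0.14, adjusted p = 0.206). Of 20 integrin and focal adhesion genes 2 fell (median -0.13), both caveolins. CAV2 went from 756, 788 and 834 to 473, 517 and 605 (log2 -0.57 ± 0.12, adjusted p = 0.0196), and its second probe set matched it. CAV1 changed by -0.40 ± 0.10 (adjusted p = 0.0465), and its second probe set gave -0.09 (average -0.24, adjusted p = 0.158). CAV2 lost its call without untreated replicate 2 or 3 or replicate 1 at 4 h (up to 0.0911), and CAV1 without any array but replicate 2 at 4 h (up to 0.16).

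Among 29 amino acid response and ATF4 targets 3 rose (10.3%, against 4.50% of all expressed genes called in either direction; median 0.15): ATF4 itself, a translation-controlled transcription factor, from 2011, 1850.5 and 1779 to 2782, 2403 and 3032 (log2 0.53 ± 0.12, adjusted p = 0.0277), SESN2, an inhibitor of mTORC1, from 260.1, 219.7 and 206 to 328, 430.2 and 379 (log2 0.69 ± 0.13, adjusted p = 0.0122), and STC2, stanniocalcin 2, from 219, 245 and 235 to 314, 359 and 400.5 (log2 0.58 ± 0.12, adjusted p = 0.0177). The second probe set of STC2 had the other sign (-0.32), and their average gave an adjusted p of 0.555. STC2 was below its untreated level at 24 h (137 ± 11.8). SESN2 lost its call without untreated replicate 2 or 3 (0.0604 and 0.0682), ATF4 without those or replicate 1 or 3 at 4 h (up to 0.117), and STC2 without any untreated array or replicate 3 at 4 h (up to 0.0684).

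Of 15 cytosolic aminoacyl-tRNA synthetases 1 rose (6.7%, near the 4.50% of all expressed genes called, list median 0.14). This was EPRS1, which charges glutamate and proline, from 929.6, 735 and 702 to 1268, 1272 and 1604 (log2 0.80 ± 0.15, adjusted p = 0.0122), a call lost without untreated replicate 2 or 3 (0.0617 and 0.0669). Its other expressed probe sets gave 0.10 and 0.34, and the average of the 3 was 0.41 (adjusted p = 0.0471). Of 20 endoplasmic reticulum genes 1 fell (5.0%, also near 4.50%, list median 0.01). It was the disulfide isomerase PDIA4 (log2 -0.78 ± 0.20, adjusted p = 0.0451), whose second probe set gave 0.02 (average -0.38, adjusted p = 0.149). Hypoxia and glycolysis genes gave 1 rise and 1 fall among 17 (median -0.01). P4HA2, a collagen prolyl hydroxylase, went from 264, 297 and 327 to 478, 377 and 454 (log2 0.53 ± 0.12, adjusted p = 0.0291). PFKFB4, a regulator of glycolysis, went from 151, 139 and 168 to 118, 81.1 and 78.8 (log2 -0.65 ± 0.16, adjusted p = 0.0395). PDIA4 lost its call without any array but untreated replicate 1 and replicate 2 at 4 h (adjusted p up to 0.168). P4HA2 lost it without any untreated array or replicate 1 or 3 at 4 h (up to 0.1), and PFKFB4 without any untreated array, replicate 2 or 3 at 4 h or replicate 2 at 24 h (up to 0.153).

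No member was called in 12 of the 30 response lists, where 4.50% of all expressed genes were called, so a short list could hold none at that share. These were heat shock genes (10 expressed), NRF2 targets (21), metallothioneins (6), p53 targets (17), cholesterol synthesis (14), proteasome subunits (27), lysosomal genes (20), plasminogen genes (11), interferon-stimulated genes (12), mitotic genes (24), DNA replication genes (20) and ribosomal proteins (18). Their members with the smallest p included the NRF2 target SLC7A11, a cystine transporter (log2 0.66 ± 0.18, adjusted p = 0.0609), and the cholesterol synthesis enzyme MSMO1 (log2 -0.37 ± 0.10, adjusted p = 0.0582). The lysosomal cholesterol carrier NPC2 had -0.36 ± 0.10 (adjusted p = 0.0553), the interferon-induced IFIT3 -0.46 ± 0.13 (0.0629; its second probe set gave a log2 difference of 0.25, and the average of both an adjusted p of 0.587), the kinetochore motor CENPE 0.81 ± 0.24 (0.0712) and the replication factor CDC45 0.34 ± 0.11 (0.0829). CHORDC1, an HSP90 cochaperone, had -0.38 ± 0.12 (0.0849), and the p53 target ZMAT3 0.42 ± 0.13 (0.0869). PSMD6 of the proteasome (0.19 ± 0.10), the metallothionein MT1E (0.16 ± 0.10) and the ribosomal RPS3 (0.18 ± 0.11) lay further from the threshold (adjusted p = 0.268, 0.349 and 0.369). Probes for metallothioneins and ribosomal proteins cannot separate close copies with certainty. A p that misses the threshold does not show that levels were equal.

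The largest falls were smaller than the largest rises, and only C16orf54 reached 2-fold on the log2 scale used here, which understates changes of dim genes. Mean intensities fell by more than 2-fold for FUT8-AS1 (96.6 untreated and 42.0 at 4 h), TMCC3 (87.9 and 40.4) and IER5L (76.0 and 32.0) as well. C16orf54, an uncharacterised gene, measured 69.2, 90.2 and 91.0 untreated and 27.9, 33.2 and 38 at 4 h (log2 -1.02 ± 0.18, adjusted p = 0.0101), and without untreated replicate 2 or 3 its adjusted p was 0.0504 or 0.0552. RUNX2, a transcription factor of bone and cartilage, measured 219, 235 and 232 untreated and 128, 114 and 109 at 4 h (log2 -0.88 ± 0.11, adjusted p = 0.00154). FUT8-AS1, named for an antisense transcript of a fucosyltransferase gene and with its strand unchecked here, measured 87.1, 91.6 and 111 untreated and 47.7, 42.9 and 35.4 at 4 h (log2 -0.96 ± 0.12, adjusted p = 0.00191). In both the groups were tight and far apart. TMCC3, a membrane protein of the endoplasmic reticulum, measured 80.4, 81.7 and 102 untreated and 43.1, 41.1 and 37.0 at 4 h (log2 -0.88 ± 0.13, adjusted p = 0.00319). RUNX2, FUT8-AS1 and TMCC3 were the 3 falls called under every setting that tested them, beside 39 rises; FUT8-AS1, TMCC3 and 6 of those rises were too dim to be tested at a minimum mean of 100.

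RRS1, a ribosome assembly factor, measured 1129.5, 1004 and 1382 untreated and 724, 611 and 479.6 at 4 h (log2 -0.94 ± 0.16, adjusted p = 0.0077), and kept its call without any array. PEBP1, which inhibits RAF, measured 1433, 1424 and 1361 untreated and 584, 1075 and 735 at 4 h (log2 -0.85 ± 0.17, adjusted p = 0.0198). On this brightest probe set replicate 2 was again the treated array nearest to untreated, as it was for CST3 and HMGB3. The second probe set of PEBP1 gave -0.17, with overlapping arrays and no call (adjusted p = 0.423), and the third gave -0.58. The average of the 3 was called (adjusted p = 0.0191). HMGB3, a chromatin protein, changed by -0.84 ± 0.18 (adjusted p = 0.0225), but its second probe set gave -0.14 and the average -0.49 (adjusted p = 0.115), not called. IER5L, a relative of an immediate early gene, changed by -0.96 ± 0.23 (adjusted p = 0.0383). IER5L and PEBP1 lost their calls without any untreated array or replicate 1 or 3 at 4 h (adjusted p up to 0.134 and 0.0749), and HMGB3 without untreated replicate 2 or 3 or replicate 1 or 3 at 4 h (up to 0.0915). MIS18A, a centromere protein, measured 357, 426 and 438 untreated and 194, 238 and 221 at 4 h (log2 -0.85 ± 0.14, adjusted p = 0.00718). Its other 2 expressed probe sets gave 0.12 and 0.35, the opposite sign, and the average of the 3 was not called (adjusted p = 0.523).

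**Figure D4:**
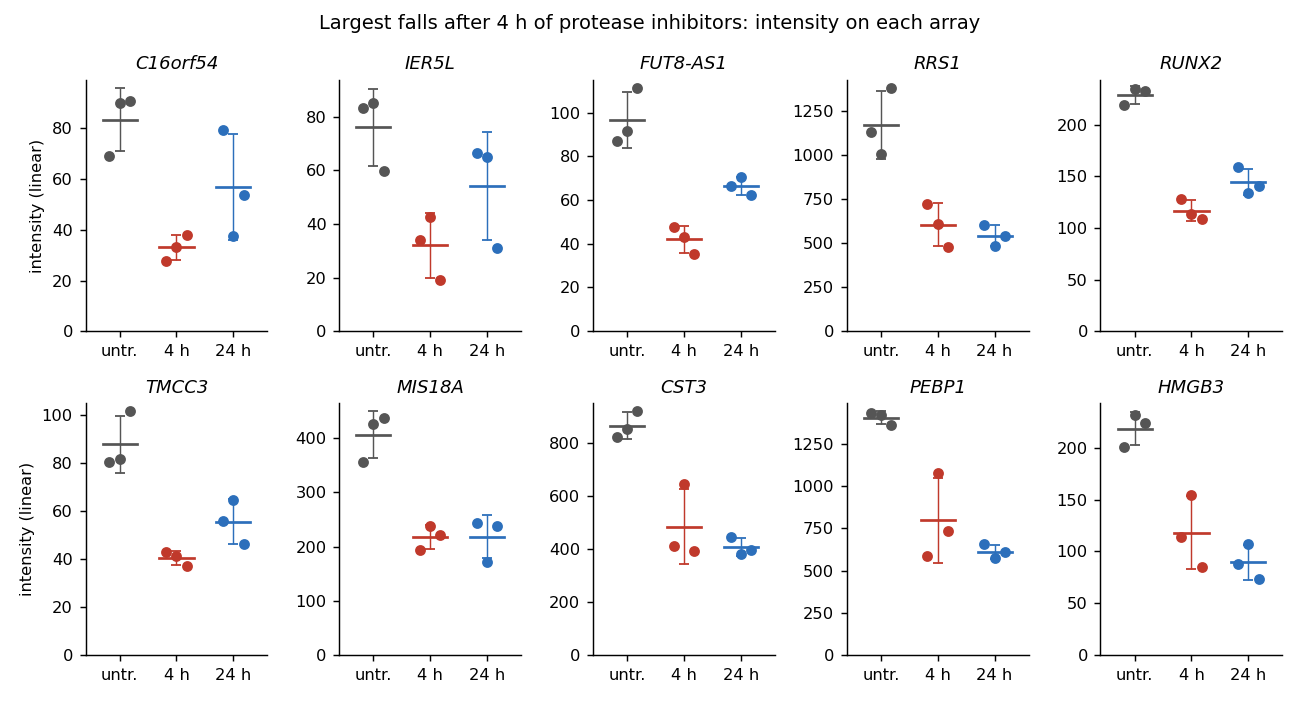
Linear intensity on each array for the 10 largest falls, with 1 point per array, a bar for the mean and an error bar for the SD (n = 3) in untreated cells and after 4 h and 24 h of inhibitors. All 4 h points lie below the untreated points, and for CST3, PEBP1 and HMGB3 the second of the 4 h points is the highest.

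Probe sets of the same gene offered a second reading of each change, on the same arrays. Of the 8838 genes 3832 had at least 2 expressed probe sets, and the second brightest had the sign of the brightest in 2535 (66.2%, exact binomial interval 64.6 to 67.7, counting error only). The share was 123 of 139 for genes called higher (88.5%) and 54 of 66 for genes called lower (81.8%), and it was 16 of 16 for rises of at least 2-fold. Since the brightest probe set made the call, the first is favoured by the choice, and the second's median change was 0.32 against 0.70 for rises and -0.30 against -0.52 for falls. Another probe set was itself called in the same direction in 41 rises and 12 falls, and called in the opposite direction in none. The remaining 129 rises and 64 falls rest on 1 expressed probe set.

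The called genes whose probe sets differed most were GNAS, PPFIBP1, MIS18A, NUP58 and PRPF38B. GNAS, the stimulatory G protein subunit, had 7 expressed probe sets spanning 1.28 on the log2 scale. The 6 brighter ones gave between -0.74 and -0.47 and the dimmest 0.54. PPFIBP1, a liprin, gave -0.84, -0.54, 0.37 and -0.05 from its 4. NUP58, a nuclear pore protein, gave 0.90, 0.76 and -0.25, and PRPF38B, a splicing factor, gave 0.93 and -0.21. Averaging the expressed probe sets left NUP58 called (adjusted p = 0.0373) and the others not (0.0733 for GNAS, 0.144 for PPFIBP1 and 0.159 for PRPF38B). Without one array, NUP58 lost its call when untreated replicate 2 or 3 was absent (0.0504 and 0.0567), GNAS when any untreated array or replicate 1 or 3 at 4 h was (up to 0.12), and PPFIBP1 when untreated replicate 2 or 3 or replicate 1 or 3 at 4 h was (up to 0.106). Closer pairs were those of CCN1 (0.74 and 0.80) and CXCL8 (2.25 and 1.86).

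**Figure D5:**
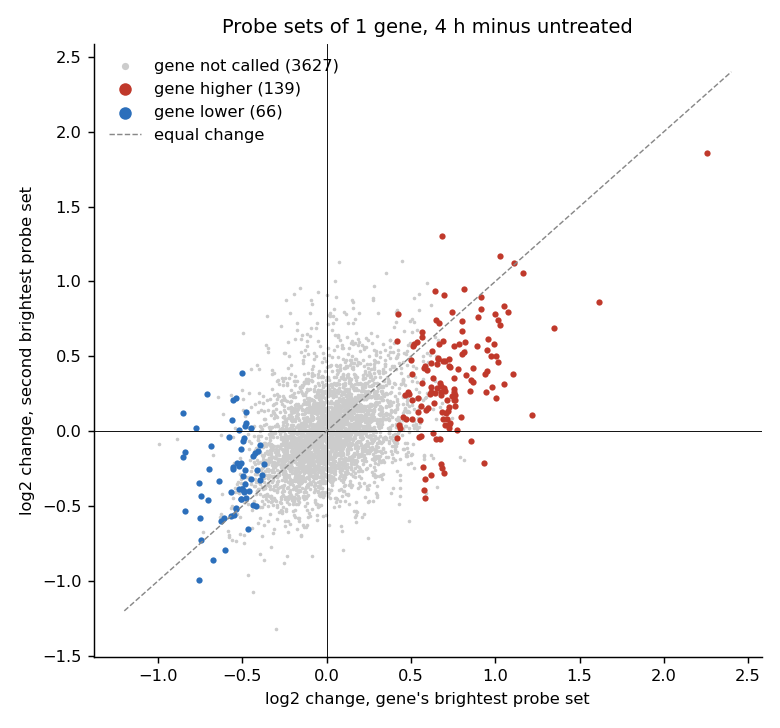
Log2 change from untreated to 4 h of the second brightest probe set (vertical axis) against that of the brightest (horizontal axis) for the 3832 genes with at least 2 expressed probe sets, 1 point per gene. Coloured points are the 139 genes called higher and 66 called lower; most lie in the quadrants of equal sign and below the line of equal change in size.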

How the data were processed

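RNA of the 9 HT1080 samples was measured on Affymetrix arrays with 54675 probe sets. The authors deposited a linear intensity per probe set and array, not a log2 value. The submitters' processing notes list R 2.9.2 and RMA, but not what each did. In the table itself, every array has a mean of 100 once the top and bottom 2% of values are trimmed. Groups come from the titles. The design text speaks of a kinase inhibitor, whereas the treatment protocol lists protease inhibitors, as used here.

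Probe sets naming 1 gene (41091) were matched to RefSeq, and a gene was its brightest probe set. Values were transformed as log2(intensity + 16) and fitted over 9 arrays (limma 3.58.1, run in R 4.3.3, with lmFit and eBayes, two-sided), the source of every adjusted p of a gene. Array measures had exact permutation tests. The design text calls replicates biological, and their number limits the precision.

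Genes were named by rule: the 10 largest rises and falls without overlap, up to 3 called members per list and direction (with no call, the smallest p), the 5 markers, 7 protease genes and the 5 called genes with the most divergent probe sets. Members, the 34 lists and settings were chosen with earlier results of these data known. Same-numbered arrays did not deviate together (correlations -0.212, 0.15 and -0.203), so they were not paired. In simulated data for 4 h against untreated (8838 genes), 44.8% of changes of 0.5, 95.5% of 1 and 98.5% of 2 (log2) were recovered, with 9 false calls among 8638 genes. The simulated noise was independent between genes and arrays, without the array-wide differences seen here. These figures are therefore not the error rate of the real calls. Alternatives varied the pseudocount, filter, normalisation, probe set rule, model and arrays.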

Additional observations from a re-analysis of the deposited data

Results flagged for a closer look

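Of the 81 genes named by rule, 29 differed between 24 h and 4 h of inhibitors, where the difference between the arrays of the 2 time points was itself tested (limma, Benjamini-Hochberg adjusted p under 0.05, 3 arrays each; 306 of 8838 expressed genes, 3.46%, passed that test). Of the 29, 24 were lower at 24 h. Both changes from untreated share the untreated arrays, and most of these genes had been picked for their value at 4 h, which favours a lower level at 24 h among the rises. Each value below is the log2 level at 24 h minus that at 4 h, and no explanation was tested.

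Among the early markers the value was -2.47 for CXCL8, -2.07 for CCN2, -0.99 for EGR1, -0.7 for MAFF and -0.52 for NFKBIA. Of the NF-kB and cytokine genes, TNFAIP3 gave -1.24, BCL2A1 -0.93, NLRP3 -0.71 and MAP3K14 -0.48. Genes of transcription control gave -0.98 (MED26), -0.94 (SERTAD1), -0.62 (CCNT1) and -0.57 (SRF). Among signalling and matrix genes the values were -0.87 for DLC1, -0.82 for TUFT1, -0.72 for INHBA, -0.65 for HBEGF, -0.6 for CCN1 and -0.84 for FN1. The RNA-decay gene RC3H1 gave -1.09, and the ATF4 targets STC2 and SESN2 gave -1.29 and -0.7.

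Both TGF-beta family genes that had fallen at 4 h were lower still at 24 h (-0.67 for ID3 and -0.47 for TGFBR2). The remaining 5 were higher at 24 h than at 4 h. Of these FUT8-AS1 (0.51), DUSP4 (0.79), PFKFB4 (0.76) and AUH (0.6) had fallen at 4 h, and the cholesterol synthesis gene MSMO1 (1.16) was not called at 4 h but was above untreated at 24 h (log2 0.79, adjusted p = 0.00171).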

How the results depend on the processing

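No named gene reversed direction in the 21 settings tried; of all 398 called genes, NEDD1 (0.58 to -0.09) and NBN (-0.48 to 0.07) did so with the mean over expressed probe sets (named for this). Counts are genes higher, then lower, against 268 and 130 of the reported fit. Testing all 19775 genes left 47 and 3, and a filter at a mean of 20 left 173 and 43. Array weights gave 417 and 344. Lower genes numbered 219 with a pseudocount of 64, 245 with an intensity trend and 52 with the 6 arrays alone. Genes called at least 2-fold (32) numbered 55 with a pseudocount of 1, 9 with 64, 20 without a filter and 20 with the mean over expressed probe sets. Leaving out 1 array gave 100 to 484 higher genes, 12 to 516 lower and 19 to 61 at least 2-fold. Second probe sets shared the sign of the first in 66.2%, or 63.6% at a minimum of 20 and 68.9% at 100. With the replicate number as a block, 242 were higher, 110 lower and 32 at least 2-fold; the numbers do not pair the arrays. Of the 60 named calls, 19 were kept under every setting that tested them, 28 without any 1 array, and 41 were lost without the filter. The median change of all expressed genes was -0.01 as deposited and -0.02 after median centring. Genes changed by 0.5 were missed more often than not in simulated data, and no detection calls separate dim genes from background.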

Other observations

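Some genes outside the lists moved clearly as well; they are named here after their values were seen, from the 83 rises and 9 falls that were called whichever single array was left out. FOXO3, a forkhead factor of stress and survival, measured 229.0, 211 and 184 untreated and 427, 372 and 630 at 4 h (log2 1.11 ± 0.17, limma adjusted p = 0.00484). SERTAD2, a relative of SERTAD1, measured 186, 154 and 172 untreated and 363, 349 and 422 at 4 h (log2 1.08 ± 0.11, adjusted p = 0.000639). HIPK3, a nuclear kinase, gave a log2 change of 1.07 ± 0.13 (adjusted p = 0.00154). DCP1A, a subunit of the decapping complex that starts messenger RNA decay, rose by 0.99 ± 0.13 (adjusted p = 0.00245).

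IL7R, the interleukin-7 receptor subunit, measured 149, 131 and 116 untreated and 270.5, 269 and 268 at 4 h (log2 0.95 ± 0.11, adjusted p = 0.000948), and was still at 237 ± 10.1 at 24 h. CD274, which encodes PD-L1, measured 124, 113 and 107 untreated and 223, 188 and 219.6 at 4 h (log2 0.79 ± 0.11, adjusted p = 0.00293), and was at 102 ± 5.3 at 24 h. Of 11 measured leukocyte markers 9 lay below 16 in the mean, PTPRC among them, and CSF1R and CD3D were at 50 or more. Which cells carried the IL7R and CD274 transcripts was not tested. Among the falls, SNAI2, a transcription factor of mesenchymal cells, measured 735, 743 and 819.5 untreated and 449, 529 and 407 at 4 h (log2 -0.72 ± 0.12, adjusted p = 0.00548), and KDM1B, a histone demethylase, changed by -0.67 ± 0.11 (adjusted p = 0.0074).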
